A study of Mus musculus with 4 samples.

Results

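The subject is a set of 10 genes that mark macrophages, read in laser-captured cartilage of the mouse forelimb. They were taken by name (Mrc1, Cd68, Adgre1, Lyz2, Ptprc, Tyrobp, Fcer1g, Aif1, Cd14 and Cx3cr1) and are 10 of 34547 genes in the tables. No rule on their values was used, but earlier results of these data were known. The study set hypertrophic chondrocytes (HC) from E15.5 forelimbs (replicates 3 and 4) against proliferating chondrocytes (PC) from E14.5 forelimbs (replicates 1 and 2), all from C57BL/6 mice with no allele or treatment named. The cells were cut from frozen sections with a laser microscope, and a library kit made for degraded RNA was used on small amounts of RNA. State and age differ together between the groups and cannot be told apart. Whether the libraries of a group come from separate embryos was not given in the sources used here, and p-values then measure only the spread between these libraries, which may be technical.

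Macrophages are phagocytes that settle in nearly every tissue of the embryo, and in the skeleton they share their precursors with osteoclasts, the cells that resorb mineralised cartilage and bone. Their identity rests on the transcription factor PU.1, encoded by Spi1, and their survival on the receptor Csf1r and its ligands Csf1 and Il34. Cartilage itself has no vessels, and its hypertrophic zone is where vessels and resorbing cells later enter. Of the 10 genes, Ptprc, Tyrobp and Fcer1g are shared by many blood cells, while Adgre1, Mrc1 and Cx3cr1 are used as markers of tissue macrophages, though Mrc1 is also made by some endothelial cells and Cd68 by other cells rich in lysosomes.

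RefSeq start-site windows (GRCm38.p6, 250 bases before to 50 after the start) matched 7 of the 10 genes, with 8 windows since Ptprc has a pair. The windows of both genes that rose, Mrc1 and Cd68, are shown with those of Fcer1g and Cx3cr1 and 1 of Ptprc, genes whose transcripts or values the results below turn on. Capitals mark the core letters read by PU.1, GAGGAA on either strand, and each window is written 5′ to 3′ on the strand of its gene.
Mrc1 (chr2:14229164-14229463, plus strand): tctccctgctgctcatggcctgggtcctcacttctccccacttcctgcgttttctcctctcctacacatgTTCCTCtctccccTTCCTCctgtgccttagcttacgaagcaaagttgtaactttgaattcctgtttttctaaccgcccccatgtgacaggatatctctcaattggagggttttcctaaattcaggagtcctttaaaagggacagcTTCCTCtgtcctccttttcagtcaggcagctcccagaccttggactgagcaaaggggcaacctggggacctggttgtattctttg
Cd68 (chr11:69666121-69666420, minus strand): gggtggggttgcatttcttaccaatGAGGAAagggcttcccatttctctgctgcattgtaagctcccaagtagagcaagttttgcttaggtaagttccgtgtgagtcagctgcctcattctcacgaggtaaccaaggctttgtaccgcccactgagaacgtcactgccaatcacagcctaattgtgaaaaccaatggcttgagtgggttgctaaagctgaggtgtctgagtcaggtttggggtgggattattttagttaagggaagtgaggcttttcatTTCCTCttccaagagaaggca
Ptprc (chr1:138175256-138175555, minus strand): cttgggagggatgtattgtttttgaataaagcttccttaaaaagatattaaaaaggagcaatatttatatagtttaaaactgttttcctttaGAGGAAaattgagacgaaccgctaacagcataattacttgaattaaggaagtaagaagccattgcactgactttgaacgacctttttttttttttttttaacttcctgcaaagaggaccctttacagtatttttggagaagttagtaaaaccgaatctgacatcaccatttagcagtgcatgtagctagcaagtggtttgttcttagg
Fcer1g (chr1:171234300-171234599, minus strand): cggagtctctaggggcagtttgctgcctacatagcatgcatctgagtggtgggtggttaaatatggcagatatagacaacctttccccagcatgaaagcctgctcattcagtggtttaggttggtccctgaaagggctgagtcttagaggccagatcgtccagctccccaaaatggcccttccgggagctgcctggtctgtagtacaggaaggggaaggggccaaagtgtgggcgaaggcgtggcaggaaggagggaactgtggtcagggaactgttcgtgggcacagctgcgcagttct
Cx3cr1 (chr9:120068247-120068546, minus strand): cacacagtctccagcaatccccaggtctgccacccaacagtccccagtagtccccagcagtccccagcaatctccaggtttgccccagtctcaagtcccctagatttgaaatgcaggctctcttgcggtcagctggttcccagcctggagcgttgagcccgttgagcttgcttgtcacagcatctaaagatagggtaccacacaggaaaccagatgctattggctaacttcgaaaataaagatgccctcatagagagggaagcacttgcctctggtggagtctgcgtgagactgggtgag

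The PU.1 core letters were in the windows of 4 of the 7 genes (Mrc1, Cd68, Ptprc and Aif1). By window this was 4 of 8, against 28.3% of all 32817 windows in the table. Of the 5 windows shown, that of Mrc1 held 3 matches, that of Cd68 held 2 and that of Ptprc 1, while those of Fcer1g and Cx3cr1 held none. The other window of Ptprc, which is not shown, held none either. Other letters were searched in the same way, separately, so that matches may overlap. TTGCAA (C/EBP) and CACGTG (E-box) were in the windows of 0 genes, against 6.23% and 7.15% of all windows. TGANTCA (AP-1) was in that of 1 gene, Cd68, and TATAAA in that of 1, Ptprc, against 7.81% and 13.6%. TGTGGT (Runx) was in those of 3 genes, Fcer1g, Cx3cr1 and Lyz2, against 16.8%. These are matches of letters and not binding sites.

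All 10 genes were detected in both groups, at low levels. Libraries held 15246529 and 21866266 estimated counts in HC and 30373440 and 36644496 in PC, and the 10 genes together held 1830 and 1444 of these counts in HC and 377 and 729 in PC. Mitochondrial transcripts took 20.2% and 14.1% of counts in HC and 8.81% and 13.2% in PC. The cartilage genes that define the labelled cells were far higher than the macrophage genes in every library, with 14 chondrocyte genes at a summed 9372 and 15059 TPM in HC and 28127 and 20500.0 TPM in PC. TPM is a share of transcripts corrected for their length, used below to compare genes. CPM is a share of counts scaled by TMM, the trimmed mean of M values, and used to compare libraries.

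Mrc1 and Cd68 rose in HC, by 28.5-fold and 10.2-fold, and none of the 10 genes fell. The other 8 were Fcer1g, Adgre1, Lyz2, Tyrobp, Ptprc, Cd14 and Cx3cr1, which did not pass the test, and Aif1, which was too low to be tested. Calls come from edgeR's quasi-likelihood test, adjusted by Benjamini-Hochberg over 16607 genes at a threshold of 0.05, which called 2.75% of them higher and 1.96% of them lower in HC. Both calls lie close to that threshold. In 7 of the 9 genes tested both HC libraries were above both PC libraries in CPM, against 27.7% of all genes tested. In 0 of the 9 both lay below, against 33.3%. Mrc1 and Tyrobp are among the 7 and could enter the test only by being higher in HC. Adgre1 and Fcer1g, also among the 7, needed an HC library to enter it. The share of 7 of 9 is therefore a description only.

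**Figure D1:**
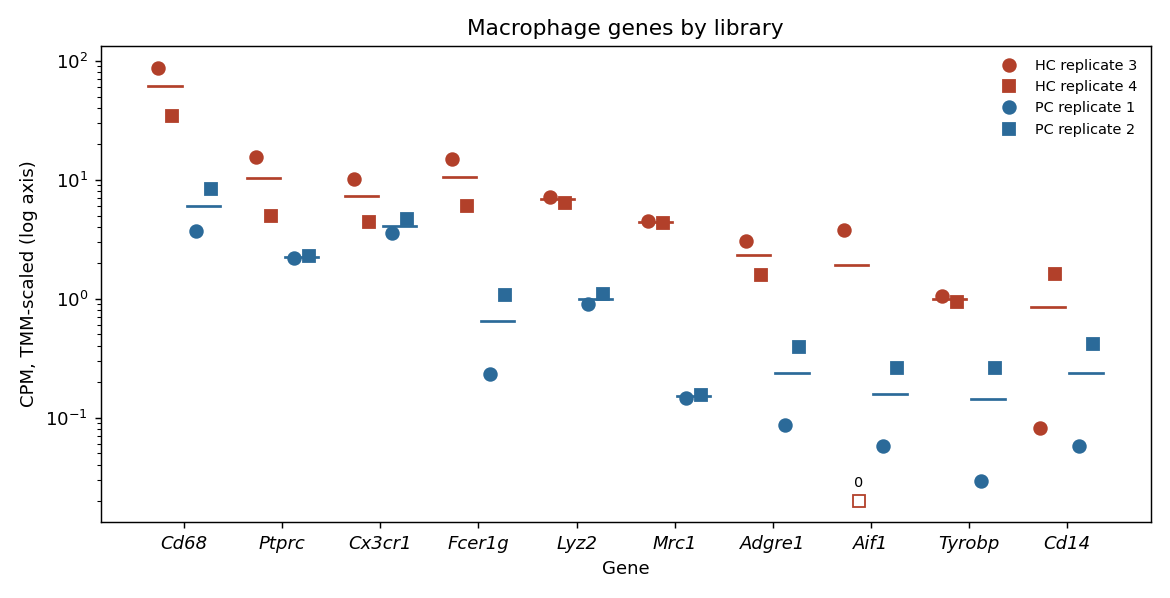
CPM of each gene on a log axis, with HC left of PC in each pair, 1 point per library and a bar at the mean of each group. HC and PC points overlap for Cx3cr1, Aif1 and Cd14 and are apart for the other 7 genes, and the open square marks the HC library in which Aif1 had 0 counts.

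In bulk RNA, the number of macrophages, the RNA per macrophage and RNA from other cells that make these genes cannot be told apart. This holds for every gene below. The filter on low counts asked for 0.385 CPM in at least 2 libraries. Mrc1 and Tyrobp met it through their HC libraries alone, so that they could enter the test only by being higher there. Adgre1, Fcer1g and Cd14 met it in 1 PC library and so also needed an HC library. Cd68, Lyz2, Ptprc and Cx3cr1 met it in both PC libraries too. Over the 9 genes tested the median log2 fold change was 2.77, against -0.04 over all genes tested, and because of that filter it is a description only.

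Among the scavenger and lysosomal genes, Cd68 was the most abundant of the 10 in each library. Cd68 (chromosome 11, 69664213 to 69666153, minus strand) encodes a glycoprotein of late endosomes and lysosomes. It had 1083 and 770 counts in HC and 127 and 321 in PC, or 87.9 and 34.7 CPM in HC and 3.69 and 8.33 CPM in PC. Both HC libraries were above both PC libraries, HC replicate 3 being the highest and PC replicate 1 the lowest. On the log2 scale the difference, HC minus PC, was 3.35 ± 0.64 (SE, n = 2 libraries per group, adjusted p = 0.0479 by edgeR). It passed without each library in turn, at 2.49 and 3.82 when HC replicate 3 or 4 was left out and at 2.84 and 4.02 when PC replicate 1 or 2 was. The call ended with scaling to library size alone (adjusted p = 0.0589 by edgeR), an offset for effective length (0.055), coding transcripts only (0.0663) and limma on log2(TPM + 1) or log2(TPM + 0.1) (0.0614 and 0.073), within a range from 1.34e-06 with DESeq2.

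Mrc1 (chromosome 2, 14229392 to 14332057, plus strand), the mannose receptor that takes up glycoproteins, had 55 and 97 counts in HC and 5 and 6 in PC. In CPM this was 4.46 and 4.37 in HC and 0.145 and 0.156 in PC, so the libraries of each group were nearly level and the groups far apart. On the log2 scale the difference, HC minus PC, was 4.83 ± 0.92 (SE, n = 2 libraries per group, adjusted p = 0.0479 by edgeR). It stayed between 4.74 and 4.84 without single libraries, but the call ended without PC replicate 1 (adjusted p = 0.421 by edgeR) or PC replicate 2 (0.312). It also ended under the same 5 settings as that of Cd68, with adjusted p from 0.061 to 0.0837 in edgeR or limma, against 4.57e-05 with DESeq2. The log2 fold change was 4.57 to 4.95 in the 3 edgeR fits among these and 0.88 and 2.84 in limma on log2(TPM + 1) and log2(TPM + 0.1), scales that understate the change of low genes. Mrc2, its relative in mesenchymal cells, had 54.0 and 83.3 CPM in HC and 245 and 137 CPM in PC, a difference that did not pass (-1.48 ± 0.42, adjusted p = 0.0953 by edgeR).

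Lyz2 (chromosome 10, 117277331 to 117282321, minus strand), the lysozyme of myeloid cells, had 89 and 143 counts in HC and 31 and 42 in PC, or 7.22 and 6.44 CPM in HC and 0.901 and 1.09 CPM in PC. The groups did not overlap and each was tight, but the log2 fold change of 2.77 ± 0.67 did not pass (SE, n = 2 per group, adjusted p = 0.0736 by edgeR). It passed without HC replicate 3 or HC replicate 4, at 2.65 and 2.81. Its neighbour and near copy Lyz1 had 0 counts in each library. Of the words of 31 bases in the Lyz2 transcript 32.8% also occur in Lyz1, so the split between this pair rests on the rest of the sequence.

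The adaptors Fcer1g and Tyrobp carry the signal of immune receptors that have no signalling tail of their own, through motifs that bind the kinase Syk. Fcer1g (chromosome 1, 171229572 to 171234365, minus strand), the gamma chain of Fc receptors, had 186 and 134 counts in HC and 8 and 41 in PC, or 15.1 and 6.03 CPM in HC and 0.233 and 1.06 CPM in PC. HC was above PC in each library, while PC replicate 2 stood 4.58 times above PC replicate 1. The log2 fold change of 4.01 ± 0.98 did not pass (SE, n = 2 per group, adjusted p = 0.0754 by edgeR). It passed without HC replicate 3 (3.17), HC replicate 4 (4.47) or PC replicate 2 (5.44), and was 3.27 without PC replicate 1.

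Tyrobp (chromosome 7, 30413760 to 30417585, plus strand), the adaptor of Trem2 and other myeloid receptors, had 13 and 21 counts in HC and 1 and 10 in PC. The HC libraries were level at 1.06 and 0.945 CPM, above 0.0291 and 0.260 CPM in PC. The log2 fold change of 2.74 ± 1.36 did not pass (adjusted p = 0.262 by edgeR), and it was 1.89 without PC replicate 1 and 4.84 without PC replicate 2. All 13 counts of HC replicate 3 were assigned to a transcript annotated as a target of nonsense-mediated decay, while in HC replicate 4 and both PC libraries they were assigned to a coding transcript. Hcst, the neighbouring adaptor gene, had at most 1 count in any library.

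**Figure D2:**
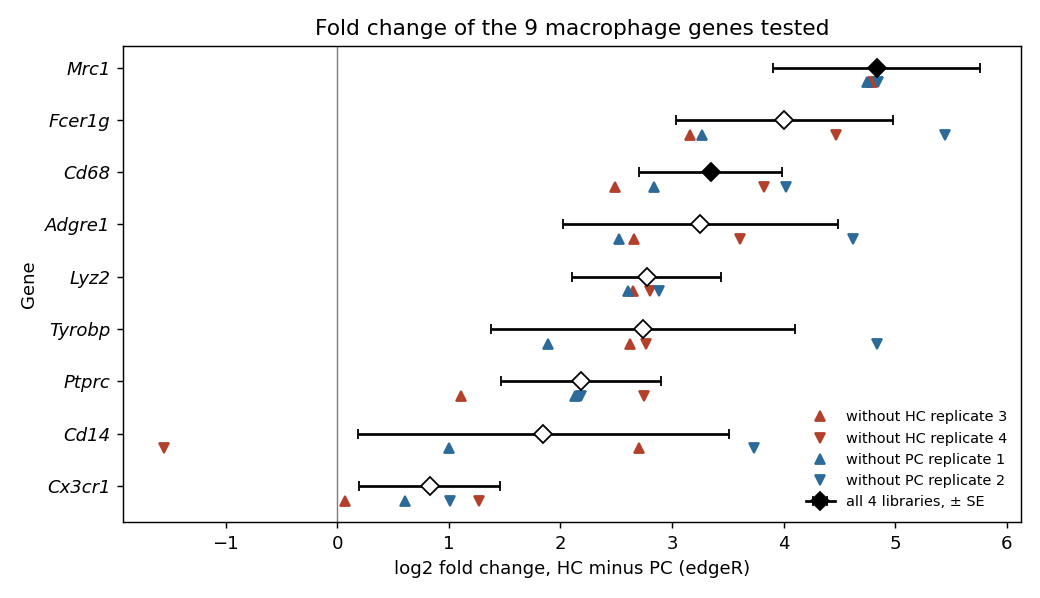
Log2 fold change of HC minus PC for the 9 genes tested, as diamonds with the SE (filled where the edgeR adjusted p was under 0.05), with the values without each library as triangles below. Mrc1 and Cd68 are filled, Mrc1 and Lyz2 move least when a library is left out, and Cd14 turns negative without HC replicate 4.

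Among the surface receptors, Ptprc (chromosome 1, 138062861 to 138175708, minus strand) encodes CD45, the tyrosine phosphatase on all white blood cells. It had 192 and 110 counts in HC and 76 and 88 in PC, or 15.6 and 4.95 CPM in HC and 2.21 and 2.28 CPM in PC. The groups did not overlap and the log2 fold change of 2.19 ± 0.71 did not pass (SE, n = 2 per group, adjusted p = 0.121 by edgeR). It passed without HC replicate 4 (2.75) and was 1.11 without HC replicate 3.

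The sum over Ptprc transcripts hid a split. The 5 transcripts annotated as coding held 157 and 75 estimated counts in HC and 0 and 0 in PC. The 8 transcripts with a retained intron held 35 and 35 in HC and 76.2 and 88.4 in PC. Counts assigned to coding Ptprc transcripts were at 6.72 CPM over both HC libraries. With the assignment to transcripts taken as given, this was at least 163-fold higher than in PC. That limit takes 3 counts over the PC group as the floor that 0 counts allow, for counting error only, and holds no error of assignment. With 1 library left out this limit was 82.1-fold without HC replicate 3, 310.0-fold without HC replicate 4, 86.3-fold without PC replicate 1 and 77.1-fold without PC replicate 2. The retained-intron transcripts were at 2.03 CPM in HC and 2.26 CPM in PC, 0.899 times as high in HC. With only coding transcripts summed, Ptprc did not pass either (adjusted p = 0.0618 by edgeR), in a fit where no gene at all passed and 3761 had an unadjusted p under 0.05. Retained-intron transcripts of all genes took 4.91% and 5.84% of counts in HC and 5.69% and 6.05% in PC. The assignment of reads to single transcripts is an estimate, whose error is not in the files.

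**Figure D3:**
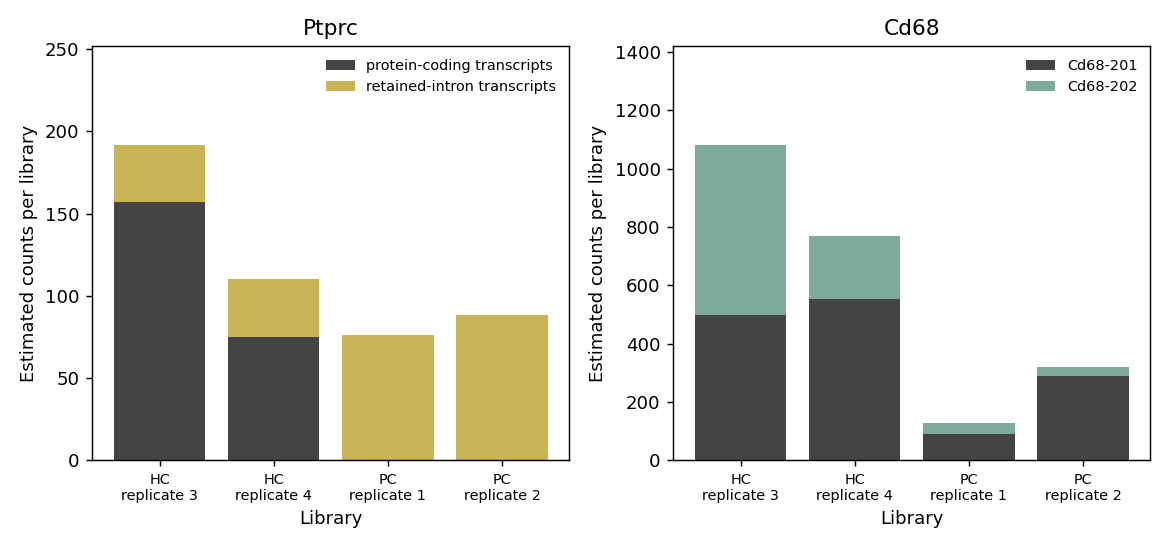
Estimated counts per library assigned to Ptprc transcripts (left panel, coding and retained-intron) and to both expressed Cd68 transcripts (right panel), with HC bars left of PC bars and bars starting at 0. Coding Ptprc transcripts appear in the HC libraries and are at 0 in the PC libraries, while both Cd68 transcripts appear in all 4.

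Cd68 counts were split between a pair of coding transcripts. The shorter of them, of 1008 bases, took 54.0% and 28.3% of the gene's counts in HC and 28.5% and 9.35% in PC. The groups overlapped, HC replicate 4 being just below PC replicate 1.

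Adgre1 (chromosome 17, 57358691 to 57483527, plus strand) encodes F4/80, the classic surface marker of mouse macrophages. It had 38 and 35 counts in HC and 3 and 15 in PC, or 3.08 and 1.58 CPM in HC and 0.0872 and 0.389 CPM in PC. The groups did not overlap, and the log2 fold change of 3.25 ± 1.24 did not pass (adjusted p = 0.163 by edgeR). Leaving out PC replicate 1 or 2 gave 2.53 or 4.62, and leaving out HC replicate 3 gave 2.66, while it passed when HC replicate 4 was left out, at 3.61.

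Cx3cr1 (chromosome 9, 119901616 to 120069879, minus strand), the receptor of the chemokine Cx3cl1, differed least of the 9 genes tested. It had 126 and 98 counts in HC and 122 and 180 in PC, or 10.2 and 4.41 CPM in HC and 3.55 and 4.67 CPM in PC. HC replicate 4 lay between the PC libraries. The log2 fold change was 0.83 ± 0.64 (adjusted p = 0.459 by edgeR), with 0.07 without HC replicate 3 and 1.27, which passed, without HC replicate 4. Its annotated span overlaps 5 other genes (Wdr48, Gorasp1, Ttc21a, Csrnp1 and Xirp1), 2 of them on the opposite strand, and 2.07% of its words of 31 bases occur in other genes. All its counts were assigned to a transcript from 120048683 to 120068296. Its other transcripts, which include that starting at 119901616, had 0 counts in each library. The strand setting was not given in the sources used here, and its effect on these values was not tested. None of the other 9 genes overlaps another gene's span.

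Cd14 (chromosome 18), which presents bacterial lipopolysaccharide to Tlr4 and Ly96, had 1 and 36 counts in HC and 2 and 16 in PC. The pairs of both groups were wide apart, at 0.0812 and 1.62 CPM in HC and 0.0581 and 0.415 CPM in PC, and they overlapped. The log2 fold change of 1.85 ± 1.66 did not pass (adjusted p = 0.531 by edgeR). It turned to -1.55 when HC replicate 4 was left out, and was 3.73 when PC replicate 2 was and 2.70 when HC replicate 3 was. None of 9 genes of its pathway rose or fell in edgeR (0 at an unadjusted p under 0.05) or in DESeq2, and Lbp and Tirap, with Ly96 its most abundant genes, had log2 fold changes of 0.17 ± 0.71 and 0.63 ± 0.38. Tlr4 and Ly96 had log2 fold changes of 1.04 ± 0.56 and 0.76 ± 0.75 (adjusted p = 0.3 and 0.564 by edgeR).

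Aif1 (chromosome 17, 35170991 to 35176068, minus strand), which encodes the calcium-binding protein Iba1, had 47 and 0 counts in HC and 2 and 10 in PC. HC replicate 3 was the highest library at 3.82 CPM and HC replicate 4 the lowest, where 0 counts allow up to 0.135 CPM, against 0.0581 and 0.260 CPM in PC. It failed the filter, and in a fit with no filter it was at 3.50 on the log2 scale, short of the threshold (adjusted p = 0.36 by edgeR).

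By length-corrected level, Cd68 led in both groups with a mean of 57.1 TPM in HC and 7.99 TPM in PC, and Fcer1g followed. In HC the libraries of Cd68 (71.9 and 42.4 TPM) and of Fcer1g (21.9 and 14.1 TPM) stood apart from each other and from the rest. Below them Lyz2 (4.83 and 6.79 TPM), Ptprc (7.32 and 2.40 TPM) and Aif1 (8.78 and 0 TPM) overlapped in HC. Tyrobp, Cx3cr1, Mrc1, Cd14 and Adgre1 averaged 0.707 to 2.33 TPM in HC. In PC Cd68 (5.61 and 10.4 TPM) stood apart, while Fcer1g (0.693 and 2.68 TPM) overlapped Cx3cr1 (1.48 and 1.70 TPM), Lyz2 (1.18 and 1.23 TPM) and Ptprc (0.838 and 0.768 TPM), which did not overlap each other. Mrc1, which was the lowest of the 10 in PC at a mean of 0.0404 TPM, was above Cd14 and Adgre1 in HC, at 0.915 TPM against 0.724 and 0.707 TPM, with overlapping libraries of Cd14.

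In CPM, the libraries of a group were uneven in the same direction for nearly all of these genes. By that measure PC replicate 2 was above PC replicate 1 for 10 of the 10 genes, against 49.5% of all genes tested. HC replicate 3 was above HC replicate 4 in CPM for 9 of the 10, the exception being Cd14, against 46.3% of genes tested. In TPM, PC replicate 1 was the higher for Mrc1 and Ptprc. HC replicate 4 was the higher in TPM for Mrc1, Lyz2 and Tyrobp as well as Cd14. The genes share these libraries and are not independent counts of the difference. Summed over the 10 genes, the level was 120 and 73.0 TPM in HC and 10.4 and 19.3 TPM in PC, and Cd68 alone made 59.2% and 53.3% of the summed CPM in HC and 33.7% and 44.0% in PC.

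A list of 26 other macrophage genes was less uniform. Of its 18 genes tested 1 rose, none fell and 17 did not pass, with a median log2 fold change of 1.31. At an unadjusted p under 0.05 in edgeR 4 were higher and 4 lower, and DESeq2 called 3 higher and 1 lower. The gene that rose was Lpl, a lipase also made by other cells, with 108 and 207 CPM in HC and 29.6 and 39.4 CPM in PC (2.19 ± 0.42, adjusted p = 0.0479 by edgeR, and 0.0679 without PC replicate 1). It was at 1.60 without HC replicate 4. Csf1r, the receptor that macrophages depend on, had 456 and 227 counts in HC and 24 and 67 in PC, and missed the threshold (4.26 ± 0.85, adjusted p = 0.0514 by edgeR). After Lpl the most abundant genes of the list were Stab1, a scavenger receptor shared with endothelium (14.0 and 6.98 CPM in HC and 5.06 and 3.74 CPM in PC), and Mertk, a receptor for dying cells (-0.86 ± 0.28 on the log2 scale), and neither passed. The 3 chains of complement C1q, which are made together in macrophages, differed in sign, and C1qb and C1qc, the 2 that were tested, did not pass. C1qb had 76 and 30 counts in HC and 2 and 6 in PC, C1qc had 9 and 11 in HC and 77 and 42 in PC, and C1qa had 0 and 0 in HC and 2 and 11 in PC. C1qa, Timd4, Marco, P2ry12 and Gpr34 had 0 counts in both HC libraries, and no gene of the list had 0 in both PC libraries. The HC libraries thus held some macrophage transcripts and had 0 counts of others. In HC 0 counts allow up to 0.244 and 0.135 CPM, for counting error only. Gpr34 had 0.843 and 1.01 CPM in PC, while C1qa, Timd4, Marco and P2ry12 had at most 0.286 CPM there. For C1qa, Timd4, Marco and P2ry12 the 0 counts in HC therefore do not show absence.

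Partners of the adaptors were low too. Trem2 had 79 and 13 counts in HC and 30 and 43 in PC, Fcgr3 had 28 and 38 in HC and 5 and 0 in PC, and Fcgr1 had 16 and 45 in HC and 22 and 61 in PC. Fcgr2b, the inhibitory Fc receptor, had 117 and 74 counts in HC and 94 and 53 in PC, and none of these 4 receptors passed. Fcgr4 had 0 counts in both HC libraries, against 5 in PC replicate 1 and 0 in PC replicate 2. Syk had 3.49 and 5.94 CPM in HC and 1.05 and 1.04 CPM in PC, which did not pass (adjusted p = 0.143 by edgeR). None of the 13 genes tested in the list of adaptor-coupled receptors and their kinases passed in edgeR, and the median was 1.78, with 5 higher and 1 lower at an unadjusted p under 0.05 and 4 higher called by DESeq2. Its abundant genes included Lyn (-0.98 ± 0.38) and Plcg2 (1.78 ± 0.44), which act downstream of such receptors.

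Of the transcription factors of myeloid cells, 4 of 11 tested rose and none fell, with a median log2 fold change of 3.13, and DESeq2 called 7 higher and 1 lower. Among them were Maf (4.32 ± 0.61), Runx1 (3.20 ± 0.54) and Zeb2 (3.13 ± 0.43), each with an edgeR adjusted p between 0.0359 and 0.0401, and these 3 are also made outside the blood lineage. These 3 passed without each single library, with Maf at 5.15 and Runx1 at 3.85 without PC replicate 2. Maf was abundant, at 1063 and 1617 CPM in HC and 36.9 and 97.0 CPM in PC. Spi1, the factor closest to the myeloid lineage, had 14.4 and 8.06 CPM in HC and 0.145 and 1.12 CPM in PC and did not pass (4.13 ± 1.05, adjusted p = 0.0796 by edgeR).

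Ligands that feed or attract macrophages were read next. Of 12 tested 4 rose, none fell and the median was 2.06, and DESeq2 called 5 higher and 1 lower. Csf1, the growth factor of macrophages and osteoclasts, had 86.9 and 170 CPM in HC and 16.1 and 17.1 CPM in PC (2.96 ± 0.42, adjusted p = 0.0359 by edgeR, 2.35 without HC replicate 4). The chemokines Ccl3, Ccl9 and Cxcl12 rose by 6.29 ± 1.18, 4.04 ± 0.76 and 3.50 ± 0.44. Ccl3 rested on 58 and 54 counts in HC and 1 and 2 in PC, and did not pass without PC replicate 1 (adjusted p = 0.421 by edgeR) or PC replicate 2 (0.257). Ccl9 was at 3.30 or 5.46 when PC replicate 1 or 2 was left out. The cytokine Mif was the most abundant of the list, with 221 and 132 CPM in HC and 262 and 269 CPM in PC (-0.59 ± 0.35, adjusted p = 0.344 by edgeR). Il34, the other ligand of Csf1r, had 1.46 and 0 CPM in HC and 1.51 and 0.753 CPM in PC. Cx3cl1, the ligand of Cx3cr1, had 1.87 and 1.44 CPM in HC and 16.7 and 7.55 CPM in PC, a log2 fold change of -2.88 ± 0.64 that did not pass (adjusted p = 0.0614 by edgeR).

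Since Cd68 belongs to the lysosome, general lysosomal genes were read beside it. Of 20 tested none rose in edgeR, 1 fell and the median was 0.36, with 6 higher and 4 lower at an unadjusted p under 0.05 and 5 higher and 3 lower called by DESeq2. The gene that fell was Hexa, a lysosomal hexosaminidase subunit (-2.05 ± 0.39, adjusted p = 0.0479 by edgeR, and 0.0859 without PC replicate 1). Lamp1 and Lamp2, membrane proteins related to Cd68, had log2 fold changes of 0.32 ± 0.46 and 1.38 ± 0.35 that did not pass (adjusted p = 0.708 and 0.08 by edgeR). The most abundant besides Lamp2 were the proteases Ctsl (1.59 ± 0.32) and Ctsz (-1.47 ± 0.30), which had opposite signs and also missed the threshold (adjusted p = 0.0523 and 0.0537 by edgeR).

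Genes of other cell types were read beside the macrophage genes. Of 14 osteoclast genes tested 4 rose, none fell and the median was 3.48, at a summed 459 and 482 TPM in HC and 73.9 and 86.8 TPM in PC. Those that rose were the phosphatase Acp5 (3.59 ± 0.50), the collagen-cutting protease Ctsk (4.11 ± 0.56), the integrin subunit Itgb3 (4.37 ± 0.66) and the carbonic anhydrase Car2 (3.37 ± 0.52). The call of Car2 ended without PC replicate 1 (adjusted p = 0.0627 by edgeR). Itgb3 was at 3.77 without PC replicate 1 and 5.29 without PC replicate 2, and Ctsk at 3.49 without HC replicate 3. Mmp9, the gelatinase of osteoclasts and the most abundant of the list, had 842 and 563 CPM in HC and 4.01 and 51.8 CPM in PC and did not pass (4.65 ± 1.18, adjusted p = 0.0797 by edgeR).

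Of 12 pan-leukocyte genes tested 1 rose and none fell, with a median of 1.77 and a summed 89.7 and 135 TPM in HC and 58.4 and 53.4 TPM in PC. It was Arhgdib (2.42 ± 0.40), whose call ended without PC replicate 1 (adjusted p = 0.115 by edgeR). The actin bundler Lcp1 and the lysosomal Laptm5, also abundant, had 1.42 ± 0.34 and -0.04 ± 0.39 and did not pass. Lcp1 had 46.9 and 53.1 CPM already in PC.

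Of 14 endothelial genes tested 3 rose and none fell, with a median of 2.93 and a summed 238 and 158 TPM in HC and 51.6 and 45.2 TPM in PC. These were the cadherin Cdh5 (4.38 ± 0.77) and the VEGF receptors Kdr (3.57 ± 0.68) and Flt1 (3.09 ± 0.57), while the more abundant Cd34 (2.85 ± 0.56), Ramp2 (1.08 ± 0.46) and Pecam1 did not pass and Cldn5 had 0 counts in both PC libraries. Flt1 did not stay called without PC replicate 1 (adjusted p = 0.078 by edgeR), and Cdh5 and Kdr were at 3.68 and 2.91 without it and at 5.67 and 4.66 without PC replicate 2. Of 9 red cell genes tested 4 rose and none fell, with a median of 2.67 and a summed 460 and 701 TPM in HC and 70.4 and 102 TPM in PC. Among them were the globins Hba-a2, Hbb-bt and Hbb-bs (3.70 ± 0.45, 3.65 ± 0.56 and 3.44 ± 0.56), which have near copies. Hbb-bs did not stay called without PC replicate 1 (adjusted p = 0.0612 by edgeR), Hbb-bt was at 3.05 without it and 4.53 without PC replicate 2, and the embryonic globin Hbb-bh1 had 0 counts in each library.

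Of 13 muscle genes tested 2 rose and none fell, with a median of 1.86 and a summed 274 and 134 TPM in HC and 56.8 and 81.8 TPM in PC. The myosins Myh3 (5.56 ± 0.90) and Myl1 (4.78 ± 0.88) were those, at 4.17 and 3.82 without HC replicate 3 and at 6.34 and 6.04 without PC replicate 2, while the more abundant troponins Tnnt3 (0.99 ± 0.77) and Tnnt1 (1.86 ± 0.69) did not pass and Myod1 had 0 counts in both HC libraries. Of 12 osteoblast and perichondrium genes 1 rose, Postn (2.35 ± 0.43, but adjusted p = 0.0795 by edgeR without PC replicate 1), and the median was 2.13. Its most abundant genes, the collagens Col1a1 (3.48 ± 0.70) and Col1a2 (2.78 ± 0.62) and the factor Runx2 (1.71 ± 0.40), did not pass. Of this list 9 genes were higher at an unadjusted p under 0.05 in edgeR, and DESeq2 called 9 higher. Of 12 hypertrophic genes 5 rose (Ihh, Pth1r, Alpl, Mef2c and Phospho1) with a median of 3.84, while the most abundant, Col10a1 (5.50 ± 1.13) and Spp1 (5.01 ± 1.29), did not pass. All 12 were higher at an unadjusted p under 0.05 in edgeR, and DESeq2 called all 12 higher. Phospho1 did not stay called without PC replicate 1 (adjusted p = 0.16 by edgeR), and Ihh was at 3.62 and 6.19 without HC replicate 3 or 4 and Alpl at 3.87 and 5.77 without PC replicate 1 or 2. Of 14 chondrocyte genes 1 fell, Sox5 (-2.75 ± 0.33), with a median of -0.92, while Col2a1 (-0.36 ± 0.47), Col11a1 (-0.48 ± 0.41) and Cnmd (-1.75 ± 0.43) did not pass. At an unadjusted p under 0.05 in edgeR 7 of them were lower and 1 higher, and DESeq2 called 7 lower and 1 higher. For osteoclast, pan-leukocyte, endothelial, red cell and muscle genes, 0 were lower at an unadjusted p under 0.05 in edgeR or called lower by DESeq2. In that order, 10, 6, 8, 5 and 7 were higher at an unadjusted p under 0.05 in edgeR. DESeq2 called 8, 6, 8, 5 and 6 higher. The part of each of these cell types in the macrophage values was not tested.

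**Figure D4:**
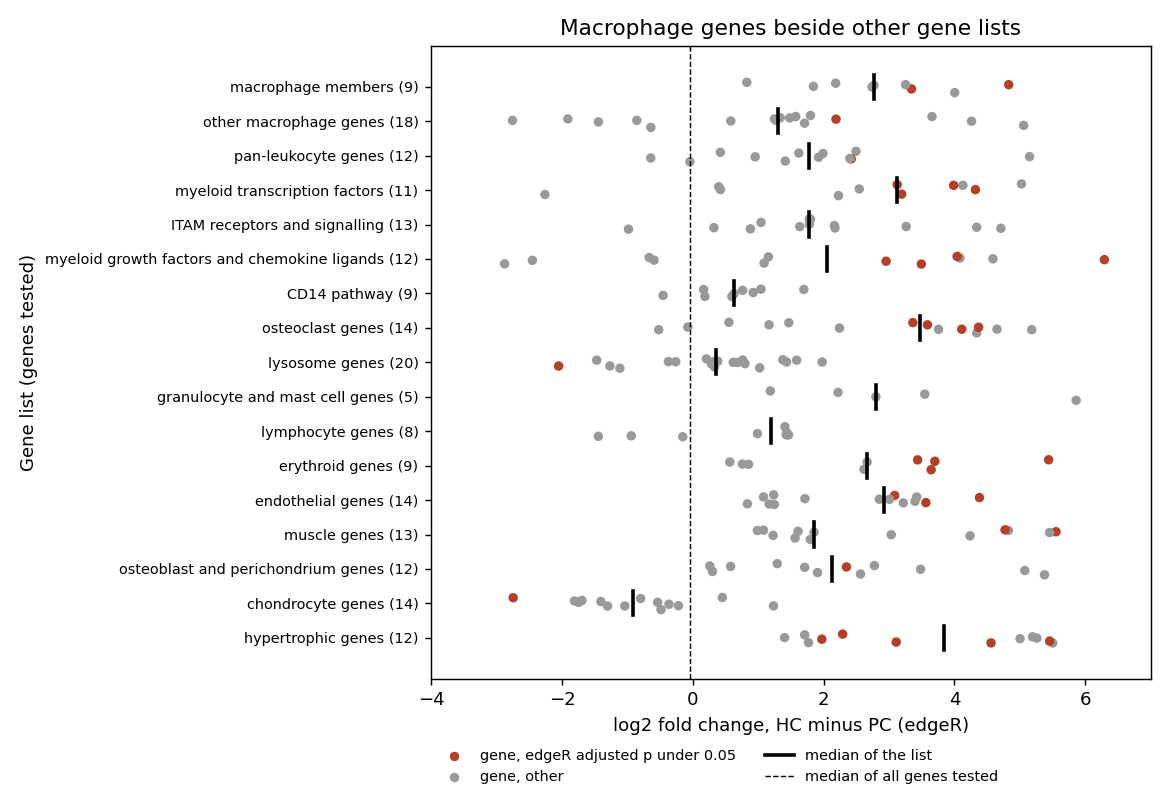
Log2 fold change of HC minus PC for each gene tested except Gpr34, by gene list, with genes that passed edgeR's test in red, a bar at the median of each list and a dashed line at the median of all genes tested. Gpr34, of the other macrophage genes, was at -7.65 and did not pass, and it lies beyond the axis. The macrophage genes have a median of 2.77, near those of the granulocyte and mast cell (2.80), red cell (2.67) and endothelial (2.93) lists, and chondrocyte genes have a median of -0.92.

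The protein-coding genes most like the macrophage genes in pattern were Efna1, Mef2a, Ccpg1, Dynlt3 and Itm2b. Likeness was the root mean square distance between log2(CPM + 0.5) values centred over the 4 libraries and the mean profile of the 9 genes tested, among genes with a mean of at least 5 TPM. The distances were 0.0476, 0.06, 0.0849, 0.0896 and 0.0906, while the 9 genes themselves lay between 0.113 (Adgre1) and 1.08 (Cd14) from their mean. Efna1, a membrane ligand of Eph receptors, had 62.4 and 46.0 CPM in HC and 10.9 and 16.9 CPM in PC. The added 0.5 understates the change of genes with low CPM, such as Mrc1 at 0.145 and 0.156 CPM in PC. With 4 libraries such a likeness is a description.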

How the data were processed

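Total RNA of 4 laser-captured samples was sequenced. The submitters' processing notes name Trimmomatic 0.36, kallisto 0.43.1 and mm10. Each deposited table gives, for every transcript, the authors' estimated count, TPM, length and effective length, per the file headers. Reads that fit several transcripts are divided among them by kallisto's model, so near copies and isoforms are split by estimate. TPM as deposited keeps no depth. Index annotation, strand setting and read filters were not given in the sources used here.

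Of 109282 transcripts, 107987 matched GENCODE M21 (GRCm38) by identifier without version, and the rest, with 0.362% to 0.534% of counts, were left out. Gene values are sums over transcripts, of estimated counts (then rounded to whole numbers for the count test) and of TPM. Genes passed filterByExpr at 0.385 CPM in at least 2 libraries. TMM factors were 0.812 and 1.021 in HC and 1.14 and 1.058 in PC.

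HC was tested against PC with edgeR 4.0.16 (R 4.3.3, quasi-likelihood, 2 residual degrees of freedom), checked on simulated data. An SE is the size of the log2 fold change over the square root of F. Alternatives were DESeq2 1.42.0, limma 3.58.1 on log2(TPM + 1) and log2(TPM + 0.1), other scalings, no filter, coding transcripts only, an effective length offset and leaving out each library. Words of 31 bases were compared on both strands with the transcripts in the tables. Floors cover counting error only. Python 3.11.15, pandas 2.3.3 and matplotlib 3.10.9 were used.

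The 10 genes and 16 other gene lists (261 symbols with the 10, all matched) were chosen with earlier results of these data known. The genes named from other lists are the 3 with the highest mean TPM, those that passed, direct partners or relatives of the 10, and some markers at 0 counts. A few genes that this rule would name are not reported here. The markers at 0 and the C1q genes were picked after their values were seen.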

Additional observations from a re-analysis of the deposited data

How the results depend on the processing

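The 10 macrophage genes kept a positive log2 fold change under every alternative that gave a value, except Cd14, which was at -1.55 without HC replicate 4 and at most 3.73, without PC replicate 2. Of the 10, 2 were called higher, against 5 with DESeq2 (Cd68, Fcer1g, Lyz2, Mrc1 and Ptprc), 3 with no filter, and 0 with scaling to library size alone, limma on log2(TPM + 1), limma on log2(TPM + 0.1), coding transcripts only or the length offset. In those last 5 fits 6, 7, 7, 6 and 6 of them were higher at an unadjusted p under 0.05. Leaving out 1 library gave 1 to 8 calls, the fewest without PC replicate 1 (Cd68) and the most without HC replicate 4, with Cd14 and Tyrobp the exceptions. Calls lower in HC numbered 0 in each fit with edgeR, DESeq2 or limma, and 0 had an unadjusted p under 0.05 in that direction.

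Over all genes, 457 were higher and 325 lower in HC. DESeq2 gave 1651 and 1446 of 17138, no filter 963 and 965 of 24150, and the length offset 247 and 131 of 16607. The fits with library size alone and limma tested 16607 genes, and that of coding transcripts only 14595. Scaling to library size alone gave 0 and 0 (4394 at an unadjusted p under 0.05), limma on log2(TPM + 1) 0 and 0 (4260), limma on log2(TPM + 0.1) 0 and 0 (3993) and coding transcripts only 0 and 0 (3761). Leaving out 1 library gave 379 to 3331 higher and 257 to 3775 lower. The cause was not tested. The median of all genes was -0.29 with library size alone, against -0.04 with TMM, and Cd68 and Mrc1 were at 3.03 and 4.57 there. Where 1 library is left out, the lone one is assumed to vary like the other group, and 18196 to 18327 genes were tested. The most calls over all genes, as over the macrophage genes, came without HC replicate 4. Calls of single genes in such fits are therefore a description only. No paired analysis was possible because the groups share no replicate number. Coding transcripts only gave no value for Tyrobp and Aif1, which failed the filter there.

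Depth limits Adgre1, Aif1, Cd14, Mrc1 and Tyrobp most, with 1 to 16 counts in each PC library.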

Other observations

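Genes of other blood cells were read too. Of 5 granulocyte and mast cell genes tested, out of 18, none passed in edgeR (3 higher at an unadjusted p under 0.05, 3 called higher by DESeq2), and the median log2 fold change was 2.80. S100a8, a calcium-binding protein of neutrophils, had 2.84 and 3.78 CPM in HC and 0.581 and 0.363 CPM in PC. Kit, a receptor of mast cells and of blood precursors, had 10.5 and 12.9 CPM in HC and 0.320 and 1.66 CPM in PC (3.55 ± 0.89, adjusted p = 0.0779 by edgeR). Cma1, a mast cell protease, had 129 and 20 counts in HC and 0 and 7 in PC. Ly6g, a neutrophil marker, and Mcpt4, another mast cell protease, had 0 counts in each library.

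Of 8 lymphocyte genes tested, out of 15, none passed in edgeR (1 lower at an unadjusted p under 0.05) or in DESeq2. The most abundant were lower in HC or level, Cd3d at -0.15 ± 0.36, Cd4 at -1.44 ± 0.51 and Rag2 at -0.94 ± 0.40 on the log2 scale, and Cd3e had 0 counts in both HC libraries.

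Csf3, the growth factor of granulocytes, was uneven within both groups, with 6683 and 874 counts in HC and 43 and 1269 in PC, and did not pass (4.09 ± 1.75, adjusted p = 0.203 by edgeR).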
